A study of Mus musculus with 2 samples.

Results

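Among 8500 cells of the mouse colonic lamina propria, 287 met a transcript rule for conventional dendritic cells of type 2 (cDC2) that carry Plet1 and Itgae or Il1r2, called Plet1 cDC2 cells here. Members were chosen by raw transcript counts. A member had at least 200 genes, at most 20% mitochondrial unique molecular identifiers (UMIs, each a counted transcript), at least 2 Plet1 UMIs, at least 1 UMI of Itgae or Il1r2 and at least 10 of the MHC class II gene H2-Ab1. It had under 2 UMIs of Xcr1 and Clec9a (cDC1 genes), under 3 of Fscn1 (mature dendritic cells), under 10 of the 3 C1q genes (macrophages), 0 of the Cd3 genes (T cells) and under 10 of Krt8 and Krt18 (epithelium). The levels of these genes in the members are therefore a description of the rule. The library labelled wild type held 98 members among 2610 cells and the library labelled deficient held 189 among 5890, and values are given in that order throughout.

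The study asked how the long non-coding RNA lncly6c (1700016P04Rik) bears on macrophage differentiation. Lamina propria cells of male C57BL/6 mice aged 6 to 8 weeks, kept free of specific pathogens, were put through the 10x Single Cell 3' assay (V3), with 1 library for wild type animals and 1 for Lncly6c (1700016P04Rik)-deficient animals. The gene was deleted in zygotes, with Cas9 cuts on either side of exons 1 and 2 joined by non-homologous ends; how many animals or founder lines each library holds is not stated in the labels. The deposited file names carry the opposite genotype words to the labels, the deleted RNA had 0 UMIs in either library (which allows up to 3.06% and 1.59% of members with a UMI), and the libraries are therefore called wild-type-labelled and deficient-labelled.

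With 1 library a group, no difference between the libraries has a replicate check, so no test was made and no p-value is given. Levels are UMIs of a gene summed over a cell set per 1000000 summed UMIs (CPM), and every interval is a 95% interval that covers counting error only. Members held a median of 18496 UMIs (4155 to 61682) and 14891 UMIs (2099 to 37262), summing to 1896196 and 3047825, and their median mitochondrial share was 3.32% and 3.54%. Of the cell barcodes, 7 occurred in both libraries, 1 of them a member. No doublet caller was run, and 10 of 98 and 25 of 189 members held at least 2 UMIs from 8 defining genes of other lineages; counts are given without them where they bear on a result. The antibody light chain gene Igkc had a UMI in 16 of 98 and 177 of 189 members, and the part of free RNA in this difference was not tested.

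Conventional dendritic cells take up antigen in the gut wall, carry it through lymph to the draining nodes with the help of the chemokine receptor CCR7, and present it to T cells. Intestinal cDC2 depend on the transcription factor IRF4, and a part of them carries the integrin CD103 (Itgae), which pairs with the beta 7 chain to bind E-cadherin on epithelial cells. Plet1 encodes a membrane-anchored surface protein known from placenta and skin epithelium and from dendritic cells of the intestine. Il1r2 is a decoy receptor that binds interleukin 1 without signalling, Tbc1d4 restrains Rab GTPases of glucose transporter traffic, and Il4i1 is a secreted amino acid oxidase of mature dendritic cells.

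Plet1 (chr9:50494525-50505482, + strand), Itgae (chr11:73090583-73147446) and Il1r2 (chr1:40074079-40125231) are protein-coding genes, with positions from GENCODE M21 on GRCm38. RefSeq windows of GRCm38.p6 were found for 6 of 9 genes looked up. The 250 bases before the start are shown for the gene that defines the cells and for 2 genes that were high beside it, Tbc1d4 and the adhesion gene Epcam, to set beside each other the stretches next to which transcription of these genes starts. Capitals mark an AP-1 motif (TGANTCA, either strand).
Plet1: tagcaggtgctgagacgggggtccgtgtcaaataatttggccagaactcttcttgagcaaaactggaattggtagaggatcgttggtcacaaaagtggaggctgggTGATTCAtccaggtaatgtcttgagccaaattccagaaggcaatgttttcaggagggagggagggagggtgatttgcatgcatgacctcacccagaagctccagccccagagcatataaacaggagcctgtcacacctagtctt
Tbc1d4: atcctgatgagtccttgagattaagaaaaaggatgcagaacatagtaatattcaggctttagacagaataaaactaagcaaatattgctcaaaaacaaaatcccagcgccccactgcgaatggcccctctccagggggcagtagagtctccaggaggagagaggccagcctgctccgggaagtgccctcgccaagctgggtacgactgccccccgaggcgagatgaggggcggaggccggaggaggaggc
Epcam: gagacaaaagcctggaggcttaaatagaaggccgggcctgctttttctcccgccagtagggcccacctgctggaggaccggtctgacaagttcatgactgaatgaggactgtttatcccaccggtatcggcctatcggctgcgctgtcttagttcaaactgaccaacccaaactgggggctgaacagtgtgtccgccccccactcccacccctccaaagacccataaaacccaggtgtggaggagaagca
The Plet1 window, chr9:50494275-50494524 on the + strand, held 1 AP-1 match, from 144 to 138 bases before the start. The Tbc1d4 window, chr14:101609192-101609441 on the - strand, and the Epcam window, chr17:87635729-87635978 on the + strand, held none. Of 32851 promoter windows of the same length, 6.75% held this motif. No other motif searched (RBPJ TGGGAA in 21.6% of windows, the ETS-IRF composite in 2.30%, PU.1 GAGGAAGT in 2.44%, both strands) matched in these 3 windows, which says only that the letters are not there.

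The members carried the transcripts of dendritic cells, with 5 dendritic cell markers summing to 11098 and 12052 CPM and the 5 markers of the Plet1 cells, 3 of them rule genes, to 2560 and 3197 CPM. H2-Ab1, a rule gene, is among the dendritic cell markers and stood at 10497 and 11499 CPM. Most of that first sum thus came from a gene of the rule. The dendritic cell receptor Flt3 had a UMI in 81 of 98 and 142 of 189 members, and the conventional dendritic cell factor Zbtb46 in 54 and 117. Irf4, the cDC2 factor, had a UMI in 84 and 145 members. Among defining genes of other cells, 4 of 4 mast cell markers were at 0 in both libraries, and 7 and 2 of 10 epithelial markers. The summed epithelial markers, which include the rule genes Krt8 and Krt18, reached 4.22 and 25.6 CPM, with 65.4% of the latter in a single cell. Of 9 macrophage markers only Mertk was at 0, in both libraries. Macrophage markers, which include the C1q genes that the rule limits, summed to 147 and 274 CPM. At least 2 UMIs of these markers were held by 44 of 98 and 112 of 189 members. The sum of 6 cDC2 markers was 1381 and 1084 CPM, against 2299 and 2295 CPM in the Cd209a cDC2 cells described below. Cd209a, the gene by which those cells were chosen, is among the 6 markers, so the choice of cells bears on this difference. The sum of 6 cDC1 markers, which include the rule genes Xcr1 and Clec9a, was 435 and 430.5 CPM. The latter sum was 299 and 230 CPM in Cd209a cells and 1619 and 1351 CPM in cDC1 cells. Monocyte markers summed to 1789 and 1742 CPM (2924 and 2509 CPM in Cd209a cells), and plasmacytoid dendritic cell markers to 258 and 276 CPM. Mature dendritic cell markers, which include the rule gene Fscn1, summed to 1007 and 2308 CPM. T cell markers, which include the Cd3 genes that the rule holds at 0, summed to 5.80 and 4.27 CPM. B cell markers summed to 2.64 and 23.6 CPM and plasma cell markers to 74.4 and 112 CPM. NK and innate lymphoid markers summed to 201 and 301 CPM, eosinophil markers to 11.1 and 13.5 CPM and endothelial markers to 39.0 and 29.9 CPM. The part of these other cell types in the results was not tested. The defining genes of cDC2 were thus present under the rule's label, while Itgae was not seen in all members. The lower cDC2 marker sum than in Cd209a cells cannot be parted from the choice of those cells by Cd209a.

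Within the members, the marker genes were spread unevenly. Plet1 ran from 2 to 62 UMIs a cell with a median of 4.5, and from 2 to 53 with a median of 6. Itgae had a UMI in 72 of 98 members (73.5%) and in 138 of 189 (73.0%), with a highest value of 15 and 20 UMIs. Il1r2 had a UMI in 97 and 185 members, with medians of 16.5 and 17 UMIs. So 71 and 134 members carried both, 26 and 51 Il1r2 alone, and only 1 and 4 Itgae alone. CD103 transcript was thus seen in just under 3 in 4 members at their depth. Tbc1d4, which the rule did not use, had a UMI in 84 of 98 and 167 of 189 members, and Il4i1 in 26 and 86.

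**Figure D1:**
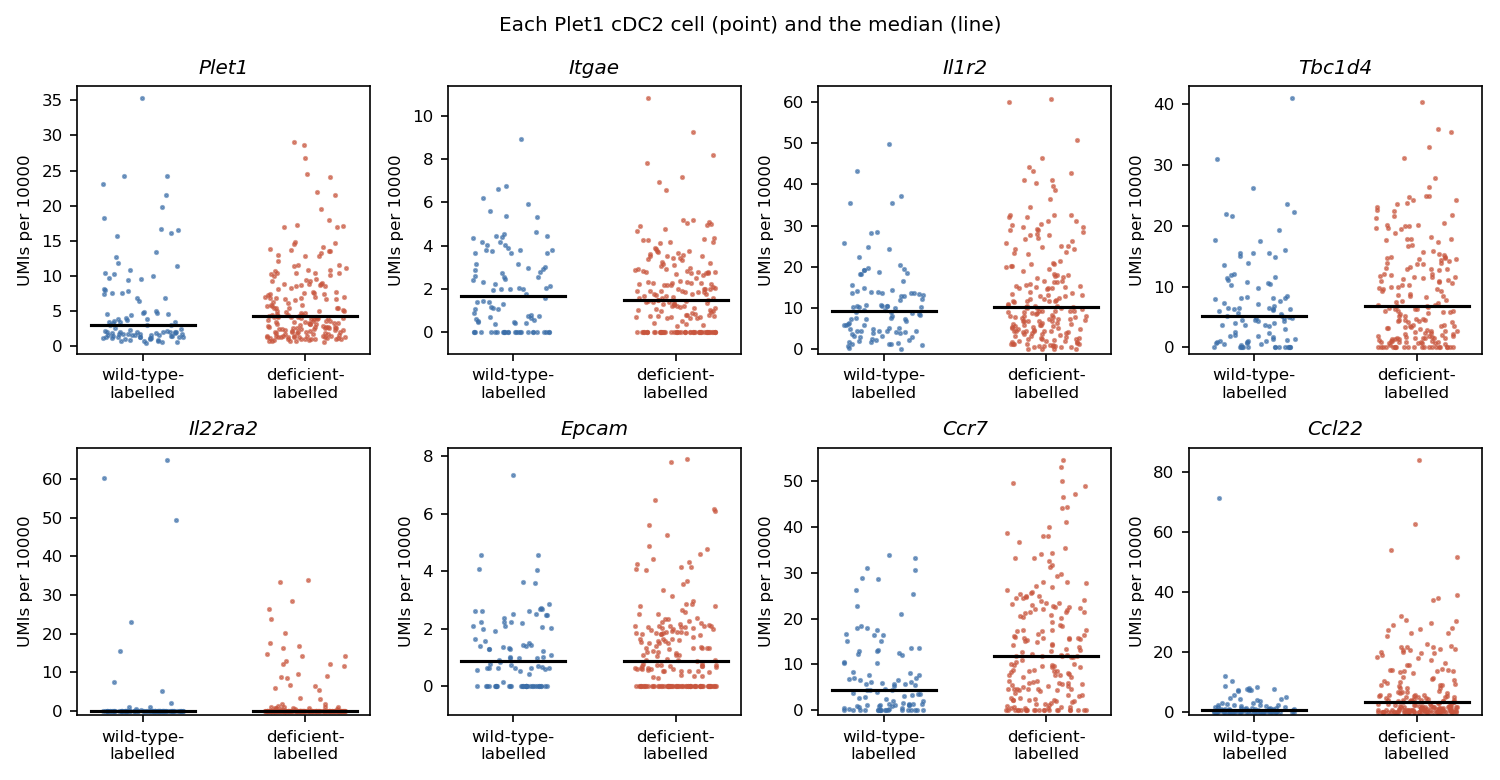
Each point is 1 Plet1 cDC2 cell and each line a median, on axes of UMIs per 10000 UMIs of the cell, for 8 genes and the 2 libraries. Plet1, Itgae, Il1r2, Tbc1d4 and Epcam overlap between libraries, Il22ra2 is at 0 in most cells and high in a few, and the median of Ccr7 is 4.45 against 11.8.

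Of the wild-type-labelled cells, 3.75% (3.06 to 4.56%, Clopper-Pearson) were Plet1 cDC2 cells. In the deficient-labelled library they were 3.21% (2.77 to 3.69%), so the intervals overlapped. The other dendritic cell sets were cut with matching rules: Cd209a cDC2 cells (at least 2 Cd209a UMIs and 0 of Plet1; 374 and 841 cells), cDC1 cells (at least 2 UMIs of Xcr1 and Clec9a; 102 and 359) and mature dendritic cells (at least 3 Fscn1 UMIs with Ccr7; 33 and 70). Of these 4 sets together, the Plet1 cells were 16.1% (13.3 to 19.3%) of 607 and 12.95% (11.3 to 14.8%) of 1459 cells. The rule counts raw UMIs, so shallower cells reach its minimums less often and deeper cells go over its upper limits more often. With the 1989 and 5217 cells that had 2000 UMIs thinned to that number, the shares were 1.36% and 1.04%.

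Compared with Cd209a cDC2 cells, the Plet1 cells had far more Il22ra2, more of the epithelial-type adhesion genes Epcam, Cdh1 and Cldn1, more Ly75, Ccr9 and Tbc1d4, and less Ccr2, Clec10a, Itgam and Cd14. The members were deeper, against medians of 13482 and 11437 UMIs in Cd209a cells. Of 8219 genes with at least 100 UMIs over the sets and outside the rules, 104 (1.27%) were over 2-fold higher in both libraries and 237 (2.88%) over 2-fold lower. With each ratio scaled to the median gene, whose log2 ratio was -0.10 and -0.13, the counts were 138 and 185. Without cells that held UMIs of other lineages they were 102 and 254.

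Il22ra2, which encodes the secreted interleukin 22 binding protein, a soluble receptor that keeps interleukin 22 from acting on epithelium, stood furthest apart. Its level was 128 CPM in the members against 1.53 CPM in the wild-type-labelled library's Cd209a cells, and 218 against 1.69 CPM in the deficient-labelled one. The log2 ratios were 6.39 (5.39 to 7.62) and 7.01 (6.32 to 7.80). In cDC1 cells it had 0 UMIs and 13 UMIs. The transcript was found in few members, with a UMI in 12 of 98 (12.2%) and 40 of 189 (21.2%). The 5 highest members held 85.6% and 40.2% of its UMIs, up to 61 and 84 in a cell, and 6 and 22 members held at least 10. Of the members with Il22ra2, 9 of 12 and 34 of 40 also had an Itgae UMI. Thinned to 2000 UMIs, 6.12% and 14.3% of members had a UMI, against 0.27% and 0.48% of Cd209a cells. In B cells, the set used for free RNA, it was 0 of 85 and 0 of 528, which allows up to 3.53% and 0.57%. In mature dendritic cells 0 of 33 cells (which allows up to 9.09%) and 18.6% of 70 cells had a UMI before thinning, a difference that was not tested.

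**Figure D2:**
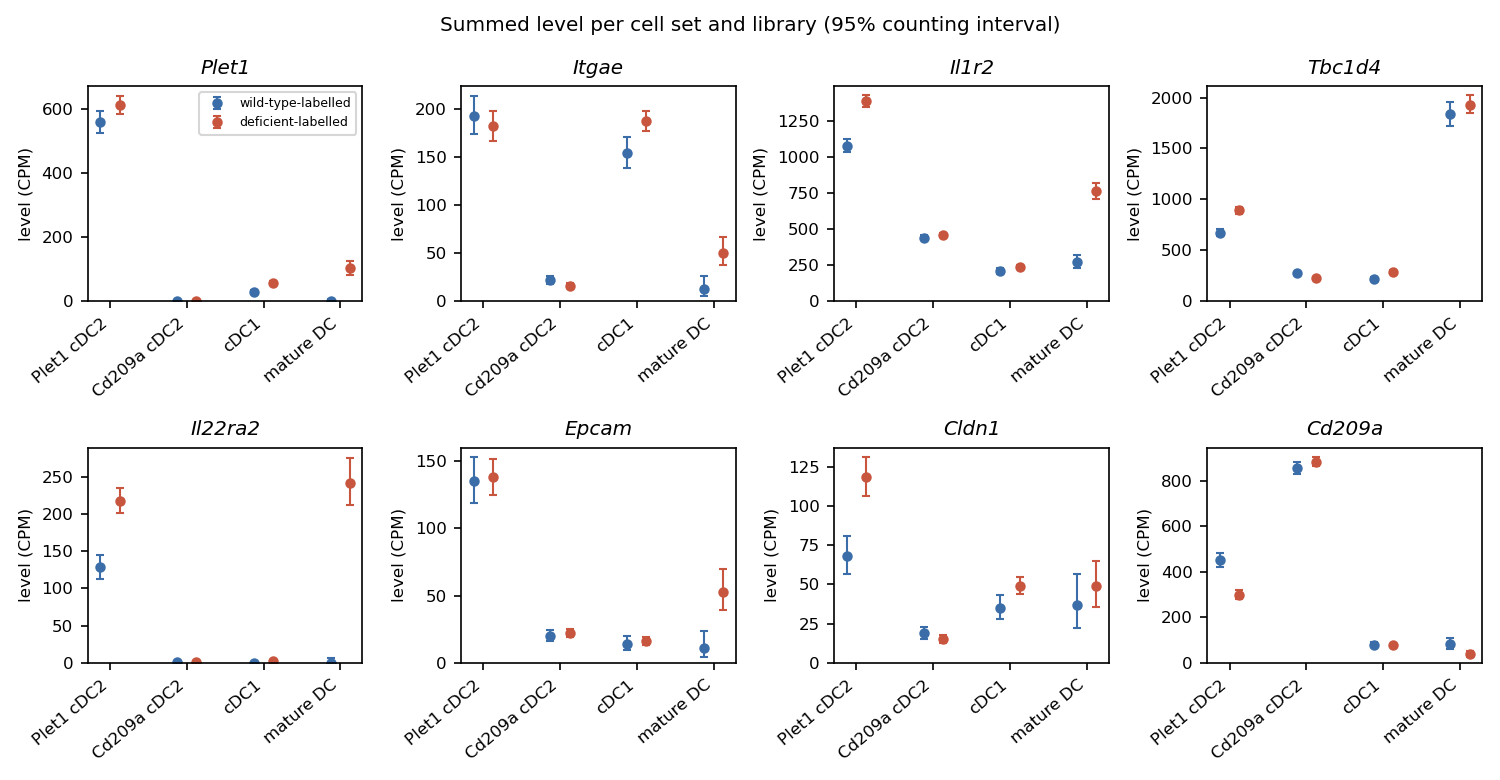
Points are summed levels in CPM with 95% counting intervals for 8 genes in the 4 dendritic cell sets, in blue for the wild-type-labelled and in red for the deficient-labelled library. Il22ra2, Epcam and Cldn1 are highest or near highest in the Plet1 cells, Itgae is shared with cDC1 cells, and Tbc1d4 is highest in mature dendritic cells.

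Against Cd209a cells, adhesion genes of epithelial type were the list with the highest median. Of its 6 measured members outside the rule, 3 were over 2-fold higher in both libraries and 0 lower, and its medians were 1.17 and 1.14 on the log2 scale, against -0.10 and -0.13 over all genes tested. Epcam, a homophilic adhesion molecule, was at 135 against 20.1 CPM and 138 against 22.2 CPM, log2 ratios of 2.75 (2.42 to 3.09) and 2.63 (2.40 to 2.87). It had a UMI in 65 of 98 and 124 of 189 members. Cdh1, which encodes E-cadherin, the ligand of CD103, was at 60.6 against 15.7 CPM and 45.9 against 9.56 CPM. Cldn1, a tight junction claudin, was at 68.0 against 18.9 CPM and 118 against 15.2 CPM. All genes of the list outside the rule summed to 456 and 472 CPM in members and to 227 and 230 CPM in Cd209a cells. In mature dendritic cells this sum was 334 and 328 CPM. Thinned to 2000 UMIs, Epcam had a UMI in 19.4% and 22.8% of members (66.3% and 65.6% unthinned), against 2.41% and 5.01% of Cd209a cells and 2.35% and 3.22% of B cells. The epithelial marker sum, with the rule genes Krt8 and Krt18 in it, was at 4.22 and 25.6 CPM against 41.5 and 19.1 CPM in Cd209a cells.

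The other genes among the 15 highest by the smaller of the 2 ratios encode receptors, enzymes and secreted proteins. Ly75, the endocytic receptor DEC-205, had log2 ratios of 2.85 and 2.85, and the proton-sensing receptor Gpr4 2.51 and 2.57. Pglyrp1, a peptidoglycan-binding protein, had 2.43 and 3.60, and Dnase1l3, a secreted nuclease, 3.01 (2.55 to 3.49) and 2.10 (1.82 to 2.38). Ltc4s, the leukotriene C4 synthase, was at 24.3 against 5.73 CPM and 22.6 against 4.58 CPM. Stra6l, related to the retinol transporter Stra6, was at 58.0 against 8.41 CPM and 39.0 against 9.46 CPM. The rest were Cystm1, Map9, Mical2, Egf, Bbs9, Serpina3g and H2-Q10, each over 4-fold in both libraries. Without cells that held UMIs of other lineages, the smaller log2 ratio of H2-Q10 was 1.17.

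The 10 lowest genes included several known from macrophages and monocytes. Ccr2, the receptor by which monocytes and pre-dendritic cells leave the blood, was at 35.9 against 246 CPM and 38.1 against 200.5 CPM, log2 ratios of -2.78 (-3.15 to -2.43) and -2.40 (-2.68 to -2.13). Id3, an inhibitor of E proteins, was at 6.33 against 61.1 CPM and 11.2 against 77.8 CPM. Mrc1, the mannose receptor, had log2 ratios of -2.35 and -2.39, Lpl, lipoprotein lipase, -2.92 and -2.75, and the chemokine Ccl9 -2.55 and -2.31. Cd163, the haemoglobin scavenger receptor, had 2 and 11 UMIs in members, with ratios of -3.66 (-6.74 to -1.76) and -2.68 (-3.70 to -1.81). The remaining 4, Tspan32, Mamdc2, Abca9 and Spic, had 6 or fewer UMIs in the members of each library. The macrophage marker sum itself was close in the sets, at 147 against 164 CPM and 274 against 312 CPM; the rules limit the C1q genes in each.

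**Figure D3:**
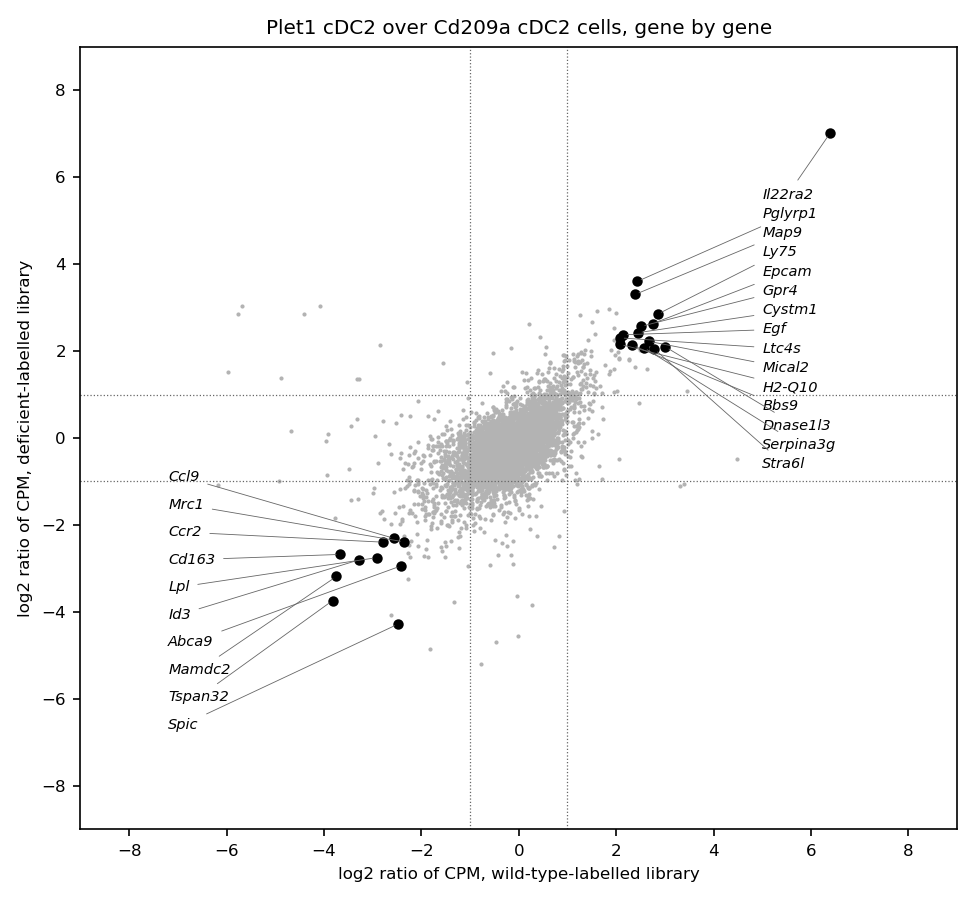
Each point is a gene with at least 100 UMIs, placed by its log2 ratio of CPM in Plet1 over Cd209a cDC2 cells in the wild-type-labelled (x axis) and deficient-labelled (y axis) library; genes at 0 UMIs are set at the floor of 3 counts, and dotted lines mark 2-fold. Il22ra2 lies apart at 6.39 and 7.01, and the named genes are the 15 highest and 10 lowest by the smaller ratio.

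The cDC2 genes divided. Of 21 measured genes of the cDC2 and CD103+CD11b+ list, Epcam was over 2-fold higher and Itgam and Clec10a over 2-fold lower in both libraries, with medians of -0.41 and -0.21. Itgam, which encodes CD11b, was at 104 against 225 CPM and 72.2 against 194 CPM. Clec10a, a galactose-type lectin, was at 60.1 against 262 CPM and 71.5 against 250.04 CPM. Sirpa was at 79.1 against 139 CPM and 81.7 against 132 CPM, and Irf4 at 253 against 144 CPM and 201 against 147 CPM. Cd209a, a lectin by which the other set was chosen, still had a UMI in 86 of 98 and 133 of 189 members. Kit, the stem cell factor receptor, was at 81.2 against 41.7 CPM and 108 against 57.6 CPM.

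Antigen presentation genes were alike in level. Of 11 class II genes outside the rule and 15 class I genes, 0 were over 2-fold either way in both libraries, and the medians lay between 0.01 and 0.07. The class II transactivator Ciita was at 58.0 against 106 CPM and 32.8 against 100.2 CPM, the lowest ratio of its list. Among 13 ligands of T cell costimulation, Tnfsf4 (OX40 ligand) and Pdcd1lg2 (PD-L2) were over 2-fold higher and Icosl, Vsir and Tnfsf9 lower. Of 8 T cell polarizing cytokines, Il23a and Il2 were over 2-fold higher and 0 lower; Il23a, a subunit of interleukin 23, was at 27.4 against 11.5 CPM and 26.2 against 3.68 CPM. Il2, the T cell growth factor, had 19 and 37 UMIs in members, or 10.02 and 12.1 CPM. In at least 1 alternative setting the smaller log2 ratio was under 2-fold for Tnfsf4 (0.89), Il2 (0.75) and Tnfsf9 (-0.93), where the value in brackets is the one nearest to 0.

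Among 15 homing receptors, Ccr9, the receptor for the small intestinal chemokine Ccl25, and P2ry14 were over 2-fold higher and Ccr2 lower. Ccr9 was at 19.0 against 4.78 CPM and 33.8 against 4.58 CPM. Ccr7 was at 762 against 531 CPM and 1473 against 766 CPM, log2 ratios of 0.52 (0.43 to 0.61) and 0.94 (0.89 to 0.997), under 2-fold. Of 15 chemokines, 0 were higher and Ccl5, Ccl6 and Ccl9 were lower; Ccl5 was under 2-fold lower as a mean over cells, with a smaller log2 ratio of -0.90. The mature dendritic cell list had 3 of 20 genes higher (Tbc1d4, Apol7c and Pdcd1lg2) and 2 lower (Marcksl1 and Ccl5), with medians of 0.36 and 0.54. P2ry14 and Apol7c were under 2-fold higher against cells with at least 5 Cd209a UMIs (0.85 and 0.84). Tbc1d4 was at 673 against 277 CPM and 895 against 230 CPM. Il4i1 was at 59.1 against 32.1 CPM and 124 against 69.4 CPM, under 2-fold in both.

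Retinoic acid is the vitamin A product by which gut dendritic cells imprint homing on T cells. Of 9 measured genes of its list, Stra6l was over 2-fold higher and the receptor Rarg lower, and its synthetic enzyme Aldh1a2 was at 12.1 against 18.5 CPM and 7.22 against 13.1 CPM. Aldh1a2 stood at 260 and 108 CPM in mature dendritic cells. Rarg was under 2-fold lower without cells that held UMIs of other lineages (-0.92). Of 15 TGF-beta genes 0 were higher and Ltbp3 was lower; of 13 interleukin 1 genes outside the rule 0 were higher and Il1rl1, the interleukin 33 receptor, was lower. Among 13 sensing genes, Clec4n (dectin-2) was higher, at 70.1 against 25.4 CPM and 105 against 37.7 CPM, and Cd14, Tlr2 and Tifab were lower.

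Of 18 interferon-stimulated genes 0 were over 2-fold higher and Mx1, Ifit1 and Ifi209 were lower, with medians of -0.59 and -1.09. Of 24 immediate-early and dissociation genes 0 were higher and Egr1, Hspa1a and Hspa1b were lower (medians -0.27 and -0.42). Hspa1a and Hspa1b, heat shock genes, were under 2-fold lower in 3 alternative settings each. Their smaller log2 ratios were nearest to 0 against cells with at least 5 Cd209a UMIs, at -0.62 and -0.77. Of 8 genes of the lncly6c, C/EBP and Nr4a list, Cebpb, Cebpd and Ly6c2 were lower; Cebpb was at 102 against 212 CPM and 154 against 353 CPM. In at least 1 alternative setting Cebpb (-0.94 nearest to 0), Cebpd (-0.93) and Ifi209 (-0.93) were under 2-fold lower. Of 19 cell cycle genes, Ccnb2 was lower (-0.99 against cells with at least 5 Cd209a UMIs) and 0 were higher, with medians of -0.40 and -0.23. Thinned to 2000 UMIs, 12.2% and 10.1% of members held at least 2 UMIs of Mki67 and Top2a (57.1% and 58.7% unthinned), against 14.2% and 10.5% of Cd209a cells. The lists for amino acid catabolism and butyrate sensing had 0 genes over 2-fold either way, of 9 and 7 measured; of 7 cDC1 genes outside the rules there were likewise 0, of 11 dendritic cell identity genes Bcl11a was lower, and of 11 genes around Tbc1d4 that gene alone was higher.

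Some of these genes were shared with the other dendritic cell sets. Against cDC1 cells, 329 of 7382 genes (4.46%) were over 2-fold higher in both libraries and 418 (5.66%) lower. Itgae itself stood at 193 and 182 CPM in the Plet1 cells and at 155 and 188 CPM in cDC1 cells, against 21.8 and 15.9 CPM in Cd209a cells. Cystm1 was at 42.7 and 47.6 CPM in members and at 52.5 and 68.1 CPM in cDC1 cells, and Gpr4 at 36.9 and 32.5 CPM against 20.9 and 19.0 CPM. Epcam and Cdh1 were not at the members' level there, at 14.1 and 15.9 CPM and at 2.99 and 2.88 CPM. Against mature dendritic cells, 300 of 5146 genes (5.83%) were higher and 235 (4.57%) lower, on 33 and 70 cells. Tbc1d4 was at 1836 and 1931 CPM in mature cells and Il4i1 at 647 and 744 CPM, both above the members. The summed adhesion list, at 334 and 328 CPM in mature cells, lay between its levels in Cd209a cells and in the members.

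The cells were also followed by their number of Plet1 UMIs. Just outside the rule were 41 and 111 cells that met every other criterion with 1 Plet1 UMI, and just inside 25 and 38 members with 2. Itgae was at 83.2 and 47.1 CPM in the former and at 120 and 131 CPM in the latter, and Il1r2 at 597 and 590.2 CPM against 742 and 1226 CPM. Above the threshold, Itgae was at 141 CPM in the 49 wild-type-labelled members with 2 to 4 Plet1 UMIs, at 208 CPM in the 26 with 5 to 14 and at 270.4 CPM in the 23 with 15 or more. In the deficient-labelled library it was at 132, 174 and 268 CPM in 74, 74 and 41 members. Itgae is part of the rule. The members with 15 or more Plet1 UMIs were also deeper, with medians of 19561 and 17598 UMIs against 17545 and 14442 in those with 2 to 4, and the part of depth in these orders was not tested.

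Genes the rule did not use took the same order in part. Epcam was at 97.6, 157 and 180 CPM in the 3 bands of the wild-type-labelled library and at 89.1, 137 and 211 CPM in the deficient-labelled. Cldn1 was at 46.0, 51.0 and 125 CPM, and at 65.7, 116 and 200.02 CPM. Ccr9 was at 14.6, 5.89 and 40.4 CPM (24.7 to 62.3), and at 10.8, 34.6 and 66.7 CPM (49.5 to 87.9). It thus took this order in the deficient-labelled library only. Ccr2 was at 55.0, 37.3 and 0 CPM (0 UMIs, with an interval up to 7.44 CPM), and at 43.2, 45.5 and 18.7 CPM. Il22ra2 had no common order: it was at 154, 23.5 and 190 CPM in the wild-type-labelled bands and at 96.3, 212 and 408 CPM in the deficient-labelled. Cd209a also kept no order, at 430, 561 and 375 CPM and at 294, 314 and 284 CPM. Cells with 1 Plet1 UMI stood between the members and the Cd209a cells for Epcam, at 59.8 and 38.1 CPM.

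**Figure D4:**
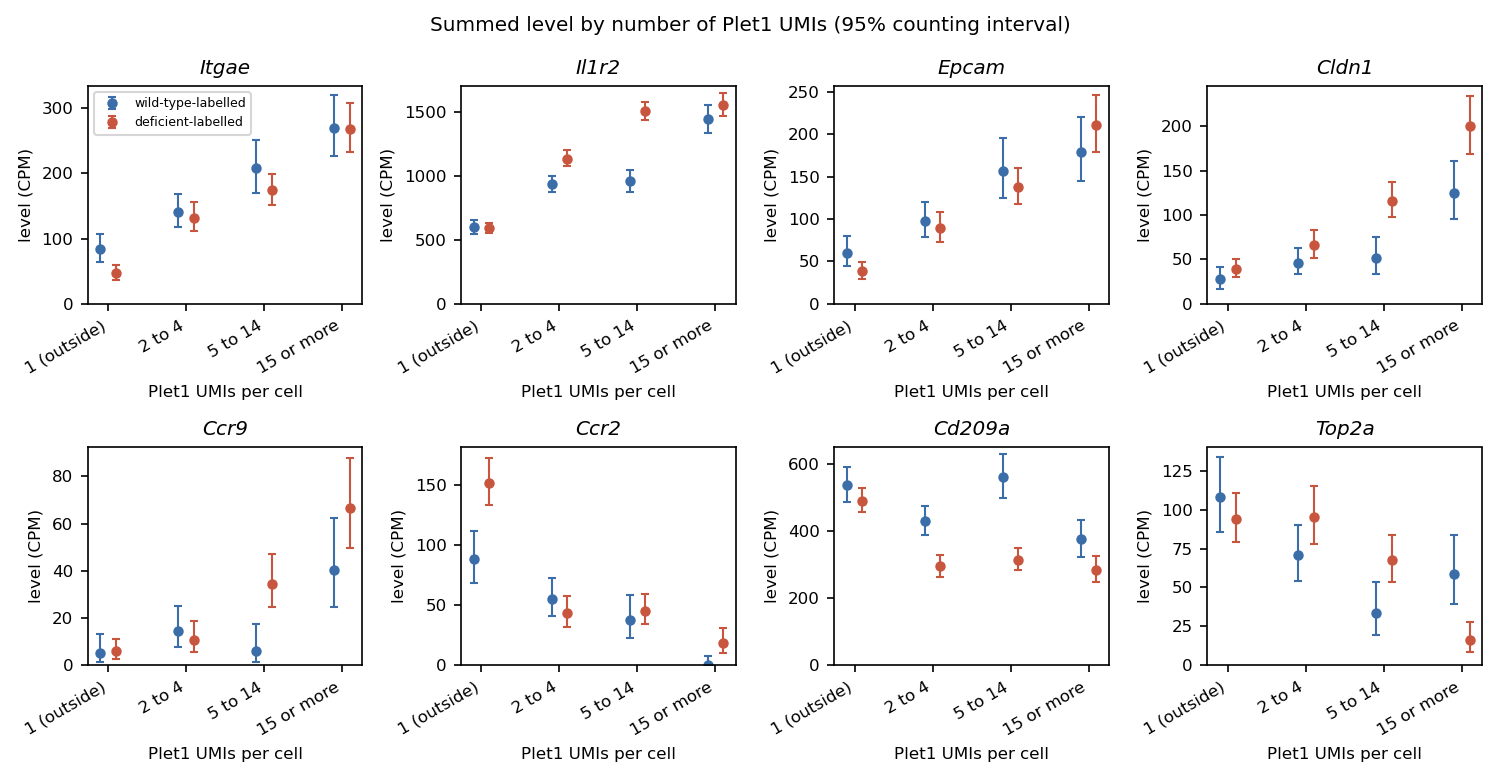
Points are summed levels in CPM with 95% counting intervals for 8 genes, by the number of Plet1 UMIs in a cell, in blue for the wild-type-labelled and in red for the deficient-labelled library; the leftmost band lies outside the rule. Itgae, Epcam and Cldn1 are highest and Ccr2 is lowest in the band with 15 or more Plet1 UMIs.

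Members with at least 3 Itgae UMIs (53 and 88 cells) were set against members with 0 (26 and 51). The split was chosen after seeing that Itgae alone occurred in 1 and 4 members, which left the intended comparison of Itgae-only with Il1r2-only members with too few cells. Of 3872 genes, 116 (3%) were over 1.5-fold higher in both libraries and 167 (4.31%) lower, and 134 and 126 with each ratio scaled to the median gene. The 8 highest were Gpr4, Xlr, Il22ra2, Mical2, Dusp18, Epcam, Ccr9 and Ly75. Il22ra2 was at 118 against 24.99 CPM and 253 against 79.8 CPM, and Epcam at 176 against 62.5 CPM and 168 against 61.8 CPM. Gpr4 had log2 ratios of 2.33 and 1.74.

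The lowest in Itgae-rich members included Ccl9, Gda, Ccl6, Cd14, Dab2, Axl and Kcnn4. Cd14, the lipopolysaccharide co-receptor, was at 71.6 against 260.3 CPM and 82.8 against 431 CPM. Axl, a receptor for apoptotic cells, was at 11.2 against 49.99 CPM and 17.5 against 54.1 CPM. With at least 3 Plet1 UMIs a member, the smaller log2 ratio went from -1.86 to -0.89 for Cd14 and from -1.56 to -0.86 for Kcnn4. Plet1, a rule gene, was higher in Itgae-rich members, at 726 against 231 CPM and 674 against 371 CPM. Depth, which sets how often a cell shows 0 Itgae UMIs, was not equalised in this comparison, and its part was not tested.

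Between the libraries, deficient-labelled members had more transcripts of dendritic cell maturation (Ccl22, Ccr7, Il4i1, Relb, Cd86) and fewer of Ccl4, Cxcl10 and Isg15. The marker genes Itgae, Plet1 and Epcam were close. The rule's upper limit on Fscn1, a gene of mature dendritic cells, counts raw UMIs, so deeper cells go over it more often. Wild-type-labelled members were the deeper, with medians of 18496 against 14891 UMIs, and the part of this limit in the maturation genes was not tested. Of 4470 genes that reached 100 UMIs in the members of both libraries together, 254 (5.68%) were over 1.5-fold higher and 308 (6.89%) lower in the deficient-labelled library. Without members that held UMIs of other lineages the counts were 245 and 279, and without each library's top cell per gene 311 and 260. Itgae had a log2 ratio of -0.08 (-0.28 to 0.11), Epcam 0.03 (-0.20 to 0.26), Plet1 0.13 (0.02 to 0.24), Il1r2 0.36 (0.29 to 0.44) and Tbc1d4 0.41 (0.31 to 0.51), all within 1.5-fold.

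Of 19 genes of the mature migratory list, 8 were over 1.5-fold higher (Traf1, Cd40, Relb, Il4i1, Ccl22, Ccr7, Cd86 and Pdcd1lg2) and 0 lower, with a median of 0.55 against -0.04 over all genes; Traf1 was at 0.56 as a mean over cells, under 1.5-fold. Ccl22, a ligand of CCR4 on T cells, was at 239 and 826 CPM, a log2 ratio of 1.79 (1.65 to 1.94), and had a UMI in 61 of 98 and 154 of 189 members. Ccr7 was at 762 and 1473 CPM, a ratio of 0.95 (0.87 to 1.04), with 4.45 and 11.8 UMIs per 10000 in the median member. Il4i1 was at 59.1 and 124 CPM, a ratio of 1.07 (0.76 to 1.38). The libraries' members overlapped in all 3 genes. Cd209a cells moved the same way, with log2 ratios of 0.96, 0.53 and 1.11 for Ccl22, Ccr7 and Il4i1 and a list median of 0.28, and so did cDC1 cells with 0.94, 1.02 and 1.26 and a median of 0.39. In mature dendritic cells the 3 ratios were -0.85, -0.11 and 0.20. Whether the members differ from these sets was not tested.

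Of 6 polarizing cytokines, Il12b, Il6 and Ebi3 were over 1.5-fold higher and Tnf lower, although Tnf had a log2 ratio of -0.28 without each library's top cell. Il12b, the shared subunit of interleukins 12 and 23, was at 88.1 and 221 CPM, with a UMI in 7 of 98 and 34 of 189 members. A single wild-type-labelled member held 52.1% of its UMIs there, and without each library's top cell the log2 ratio was 2.19 in place of 1.33. Il12b had ratios of 0.06 in Cd209a cells and -1.21 in cDC1 cells. Il6 had a ratio of 1.07 (0.72 to 1.43). Irf8, a dendritic cell and monocyte factor high in cDC1, was at 38.0 and 121 CPM, a ratio of 1.68 (1.31 to 2.06), with 26 and 84 members positive, and had ratios of 0.92 in Cd209a cells and -0.47 in cDC1 cells. Together with Cxcl9 and Ppt1 it made up the 3 of 6 measured cDC1 genes that were higher.

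Chemokines went both ways, with 5 of 14 higher (Cxcl1, Cxcl9, Ccl22, Ccl17 and Ccl9) and 4 lower (Cxcl10, Ccl2, Ccl3 and Ccl4), of which Ccl3 went to -0.47 without the top cells. Without members that held UMIs of other lineages, Cxcl1 was at 0.39 and Ccl3 at -0.21, and Ccl9 was at 0.51 as a mean over cells, each under 1.5-fold. Ccl4, a chemokine of the CC family, was at 488 and 98.4 CPM, a log2 ratio of -2.31 (-2.50 to -2.12), and had ratios of -1.95 in Cd209a cells and -1.40 in cDC1 cells. Cxcl10, an interferon-induced ligand of CXCR3, was at 190 and 61.4 CPM with a ratio of -1.63 (-1.89 to -1.37). Of 7 interferon-stimulated genes, Isg15, Cxcl10 and Stat2 were lower; Isg15 was at 155 and 64.6 CPM, with ratios of -1.09 in Cd209a cells and -1.04 in cDC1 cells.

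**Figure D5:**
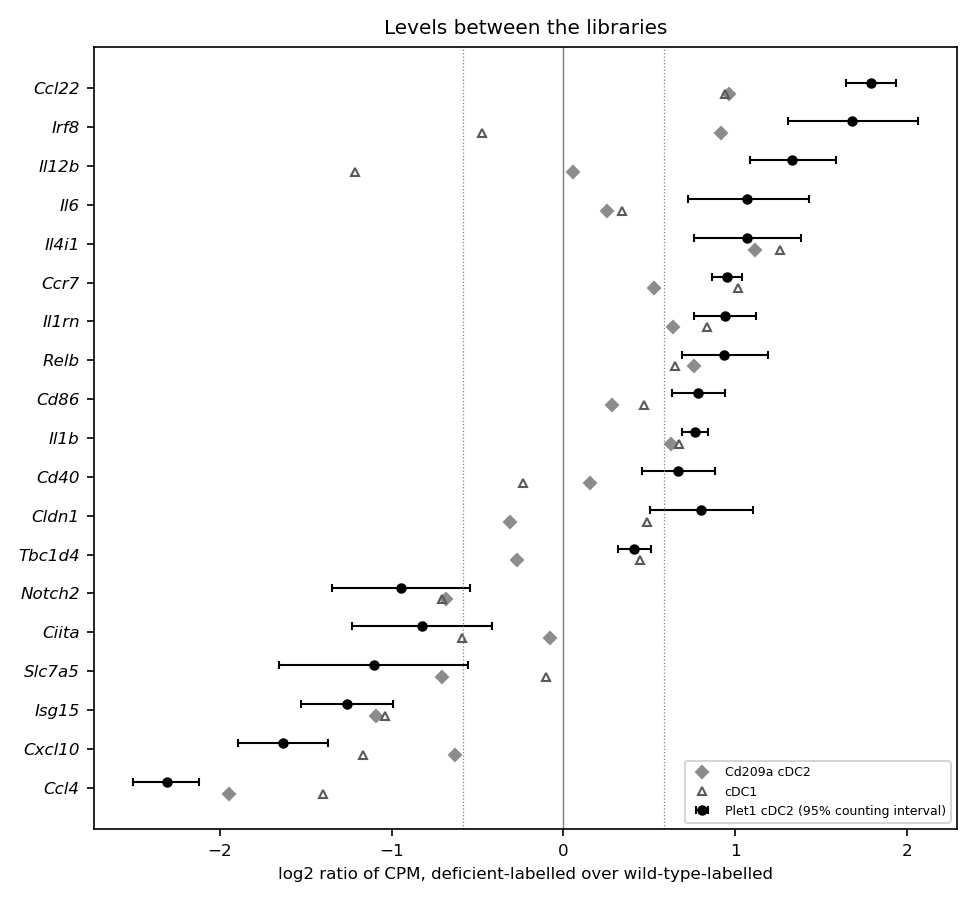
Log2 ratios of CPM in the deficient-labelled to the wild-type-labelled library for 19 genes: black points with 95% counting intervals are Plet1 cDC2 cells, grey diamonds Cd209a cDC2 cells and open triangles cDC1 cells, with dotted lines at 1.5-fold. Ccl22 is highest at 1.79 and Ccl4 lowest at -2.31 in the Plet1 cells, and Il12b and Irf8 lie on opposite sides of 0 in Plet1 and cDC1 cells.

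The remaining lists held fewer genes past 1.5-fold. Il1b, the inflammatory cytokine bound by the Il1r2 product, was at 1014 and 1721 CPM, a log2 ratio of 0.76 (0.69 to 0.84), and its antagonist Il1rn was also higher, while Il1a and Myd88 were lower. Of 10 class II genes Ciita alone was lower, with a ratio of -0.82 (-1.23 to -0.42), and of 14 class I genes H2-Q7 alone was higher. Of 19 cDC2 genes, Runx3, Relb and Csf2rb2 were higher and Notch2, a receptor on which CD103+CD11b+ cells depend, was lower at 61.2 and 31.8 CPM. Of 6 adhesion genes Cldn1 was higher, at 68.0 and 118 CPM. Among 7 genes of the lncly6c, C/EBP and Nr4a list, Cebpb was higher (0.59, 0.34 to 0.84) and Cebpa lower (-0.71, -1.28 to -0.14); Cebpb had 0.74 in Cd209a cells. Neither passed 1.5-fold without members that held UMIs of other lineages (0.55 and -0.54) or as a mean over cells (0.40 and -0.58). Of 23 immediate-early and dissociation genes 3 were higher and 5 lower, with Jund at 1048 and 555 CPM, and of 12 cell cycle genes 0 were higher and Mcm3 and Ube2c lower. Hspa1a and Hspa1b, 2 of those 3 higher genes, were at 0.50 and -0.23 with at least 3 Plet1 UMIs a member. In at least 1 alternative setting Il1a (-0.32 nearest to 0), Runx3 (0.46), Csf2rb2 (0.53), Mcm3 (-0.23) and Ube2c (-0.52) were also within 1.5-fold.

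Among the other lists, Ccr9 and Ccr7 were the 2 of 12 homing receptors that were higher, Cd40, Cd86 and Pdcd1lg2 the 3 of 12 costimulatory ligands (Lgals9 was lower), and Clec4e and Cd14 the 2 of 7 sensing genes. Kmo and Slc7a5 were lower and Il4i1 higher of 8 genes of amino acid catabolism. Ccr9 had a ratio of 0.22 as a mean over cells, and Lgals9, at -0.59, was within 1.5-fold in 5 alternative settings (-0.47 nearest to 0). Further single genes that were higher were Id2 of 10 identity genes, Itgav of 12 TGF-beta genes, Dhrs3 of 3 retinoic acid genes and Slc16a3 of 3 butyrate genes, with 0 lower in each list. Dhrs3 was at 0.52 with at least 3 Plet1 UMIs and Slc16a3 at 0.54 as a mean over cells. Of 11 genes around Tbc1d4, 0 passed 1.5-fold either way.

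For several of the widest ratios between the libraries, a single cell held most of the gene's UMIs in 1 library. The highest 10 genes were Mgp, Dcn, Col3a1, Spink4, Thbs1, Mpp7, Gga2, Atr, Cd81 and Apoe, the first 3 known from fibroblasts and Spink4 from goblet cells. A single deficient-labelled member held 82.1% of the Mgp, 69.6% of the Dcn and 61.3% of the Col3a1 UMIs, and a single member 88.2% of the Spink4 UMIs; without each library's top cell, their log2 ratios went from 6.55, 5.70, 3.66 and 3.40 to 2.49, 4.56, 2.77 and 0.90. The fibroblast marker sum was 7.91 and 169 CPM in the members, with 65.4% of the latter in a single cell. Mpp7, a junction scaffold protein, did not rest on 1 cell, at 16.9 and 72.2 CPM in 26 of 98 and 108 of 189 members, and was also higher in Cd209a cells (1.60) and cDC1 cells (1.64).

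The lowest 10 were S100a9, S100a8, Ccl4, Cd209d, Mid1, Arhgap39, Ccl2, Cxcl10, Dtymk and Ikzf2. S100a9 and S100a8, the calprotectin genes of neutrophils, had ratios of -4.31 and -3.90, with 93.4% and 92.7% of the wild-type-labelled UMIs in a single member, and of -0.60 and -0.39 without the top cells. The neutrophil marker sum was 243 and 16.1 CPM, with 91.1% of the former in a single cell. Arhgap39 and Ccl2 likewise had 56.9% and 60.0% of their wild-type-labelled UMIs in a single member, and ratios of -0.73 and -0.65 without the top cells. Cd209d, a lectin of the Cd209 family, was at 44.8 and 9.84 CPM with a UMI in 25 of 98 and 15 of 189 members, against a ratio of -0.28 in Cd209a cells. Mid1, a microtubule-associated ubiquitin ligase, was at 109 and 28.2 CPM and lower also in Cd209a cells (-1.87) and cDC1 cells (-1.35).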

How the data were processed

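The authors deposited UMI counts per gene and barcode, not normalized. The submitters' processing notes name mm10, Cell Ranger and STAR (version 2.5.1b), and per the file headers the software was version 3.0.2; the annotation is not given in the sources used here. The matrices hold 31053 genes and 3020 and 6133 barcodes of at least 500 UMIs, with 23384895 and 54773076 UMIs in all. Groups follow the titles and genotype labels.

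Members and comparison sets were cut by the UMI rules in the report, and 3 members that also met the B cell rule (at least 5 UMIs of Cd79a, Cd79b and Ms4a1) were left out of the B cells. In the deficient-labelled library, 18 Cd209a cDC2 cells and 4 cDC1 cells also met the B cell rule and were kept in both sets. The members, the 22 gene lists and the 18 marker lists were chosen with earlier results of these data known, and 6 listed genes were not found by symbol. UMIs were summed per set and library and divided by the set's total (CPM), with exact Poisson intervals; ratios have exact conditional binomial intervals and shares exact Clopper-Pearson intervals. A gene at 0 was set at a floor of 3 counts summed over the set, and no ratio was made where both sums were at or under it. Genes needed 100 UMIs over the sets compared. A gene was counted past 1.5-fold between libraries, or past 2-fold between sets in both libraries. Thinning drew 2000 UMIs per cell; 1 wild-type-labelled and 12 deficient-labelled cells of the comparison sets were shallower and left out, and 0 members.

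The genes named are the 15 highest and 10 lowest against Cd209a cells and the 10 highest and 10 lowest between libraries, leaving out rule genes, immunoglobulin and T cell receptor segments, mitochondrial, ribosomal protein and predicted genes, with up to 3 genes of each list; further genes past a fold are named where their number is small, and some genes that the rule names are not reported here. Ratios and intervals were tested on simulated counts for 4470 genes, where 94% and 98% of genes changed by 1 on the log2 scale passed 1.5-fold upward and downward, and 1.01% of unchanged genes did. The simulated counts were Poisson draws of the sums with no spread between cells, so these shares give no error rate for the real counts. Scripts ran in Python 3.11.15 with scipy 1.17.1 for intervals, numpy 2.4.6 and pandas 2.3.3 for sums, and matplotlib 3.10.9 for plots.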

Additional observations from a re-analysis of the deposited data

Results flagged for a closer look

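For 13 genes the Plet1 cells lay over 2-fold above Cd209a cDC2 cells in 1 library and over 2-fold below them in the other; the difference was not tested. In the log2 ratio of the deficient-labelled minus that of the wild-type-labelled library, 10 genes were higher, and these include genes known from goblet cells and fibroblasts: Retnlb by 8.72, Mgp by 8.61, Mptx1 by 7.48, Agr2 by 7.27, Spink4 by 7.11, Dcn by 6.26, Muc2 by 5.00, Clec3b by 4.67 and Lum by 4.64. For each of these genes the top deficient-labelled member held a large share of the UMIs in that library's members, 95.3% of the Muc2, 92.2% of the Agr2, 88.2% of the Spink4, 82.1% of the Mgp, 81.8% of the Mptx1, 81.8% of the Clec3b, 80% of the Retnlb, 79.4% of the Lum and 69.6% of the Dcn UMIs. The tenth, the G protein subunit gene Gng4, was higher by 2.34. In the other direction, S100a9 differed by -4.45, the inhibitory T cell receptor gene Ctla4 by -4.42 and the lipid-binding Osbpl2 by -2.27. Mptx1 had 1553 UMIs in wild-type-labelled Cd209a cells and 38 in deficient-labelled ones, and 9 and 33 UMIs in the members. Ctla4 had 18 and 11 UMIs in the members, and S100a9 259 and 21, with 93.4% of the former in a single cell.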

How the results depend on the processing

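No paired analysis was possible because each group has a single library. The members' share of cells was 5.33% and 5.09% with at least 1 Plet1 UMI, 2.80% and 2.56% with at least 3, 2.76% and 2.34% with at least 1 Itgae UMI, and 1.36% and 1.04% with the rule applied after thinning; the wild-type-labelled share was the higher in each of these settings. Counts of genes past 1.5-fold between the libraries were 498 higher and 561 lower with a minimum of 50 UMIs, and 125 and 151 with 200. The counts of the added Itgae split were 192 and 289 with 50 UMIs, 58 and 75 with 200, and 71 lower with at least 3 Plet1 UMIs. The log2 ratio of S100a9 between libraries turned to 0.083 with at least 3 Plet1 UMIs, and that of S100a8 to 0.048 without cells holding UMIs of other lineages. Of all values of single genes under the planned settings, these 2 included, 1410 kept their direction and size, 64 moved and 2 reversed. In settings and comparisons added after seeing the data 193 kept both and 15 moved. A minimum of 50 or 200 UMIs changes which genes are counted and not a gene's own ratio. Values under those settings are therefore among the kept ones by construction. The comparison of Itgae-only with Il1r2-only members was not run, with 1 and 4 cells in the former. Few UMIs limit Il22ra2 in Cd209a cells (8 and 17 UMIs) and most lists' small members.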
